A study of Mus musculus with 11 samples.

Results

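Tuft cells are rare chemosensory cells of the gut lining, and they are one source of cysteinyl leukotrienes there. Here 8 genes of these cells and of leukotriene and prostaglandin synthesis were followed: Pou2f3, Dclk1, Avil, Trpm5, Sucnr1, Ptgs1, Alox5ap and Ltc4s. They were taken by symbol from a table of 24294 gene symbols, and all 8 had a row. The study sequenced RNA of mouse small intestine, with 3 libraries in a group named ND and 4 each in groups named HFD and HLJDD, 11 in all. HLJDD stands in the study's title for Huang Lian Jiedu Decoction, a herbal mixture tested there in obese mice. The labels spell out neither ND nor HFD, and they give no strain, sex, age, dose, time or diet of the HLJDD mice. They also do not give the stretch of small intestine, or whether each library came from its own animal. The p-values given here therefore weigh a difference only against the variation from library to library, and that may be technical.

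As background, tuft cells depend on the transcription factor Pou2f3 and respond to luminal signals through receptors whose signal ends in opening of the cation channel Trpm5. Succinate, a metabolite of gut microbes and protists, acts on the receptor Sucnr1. Activated tuft cells release interleukin 25 and leukotrienes, which act on type 2 lymphoid cells. Leukotriene synthesis starts when Alox5, helped by the membrane protein Alox5ap, oxidizes arachidonic acid to leukotriene A4. Ltc4s joins glutathione to that product to give leukotriene C4, while Lta4h turns it into leukotriene B4. Ptgs1 (cyclooxygenase 1) starts prostaglandin synthesis from the same acid.

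The values are FPKM, reads scaled to gene length and library total, so levels of different genes can be compared per length. Reads recovered from them summed to 30101888 to 37943272 per library. Mitochondrial genes took 32.4% of the reads of HFD replicate 1 and 40.7% of those of HLJDD replicate 2, against 10.4% to 19.3% elsewhere. Both of these libraries also had the lowest totals. Tests were run with limma on log2(FPKM + 1) over the 10764 genes that reached 1 FPKM in 3 or more libraries, and the adjusted p (Benjamini-Hochberg) had a threshold of 0.05. Of the 8 genes, 6 were in that fit. Sucnr1 was there only through the 3 ND libraries, its highest, so its presence in the fit already depended on ND. Pou2f3 and Dclk1 were too low and were tested by exact permutation of the libraries.

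The 8 genes split. Against ND, Sucnr1 and Trpm5 were called lower and Ltc4s higher in HFD libraries, and the same 3 genes were called in the same directions in HLJDD libraries. Of all genes tested, 5.06% were called higher and 11.5% lower in HFD against ND, and 4.1% and 7.79% in HLJDD against ND. The counts here were 1 higher and 2 lower of 6 in both. One of those lower is Sucnr1, which entered the fit only by being high in ND, so its call is not free of that choice. With a filter on the mean over all libraries instead (at least 1 FPKM), 5 of the genes were tested, Sucnr1 was not, and 1 was lower in each comparison. Both comparisons use the same 3 ND libraries, so the second is no independent repeat of the first. The median change of the 6 tested genes in HFD against ND was -0.49 on the log2 scale, beside -0.20 for all genes tested. In HLJDD against ND it was -0.48, beside -0.13. The shift of all genes was removed by dividing each library by the median of its gene ratios (median-ratio scaling). The 2 medians for HFD then stood at -0.31 and 0.0025. The count of calls was again 1 higher and 2 lower of 6 in both comparisons, beside 11.7% and 11.4% of all genes in HFD and 8.72% and 9.19% in HLJDD.

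By range, all HFD libraries lay below all ND libraries for 3 of the 8 genes (Pou2f3, Trpm5 and Sucnr1) and above them for Ltc4s, as did 32.9% and 9.57% of all genes tested. After scaling it was 2 below and 1 above, beside 18.6% and 17%. All HLJDD libraries lay below ND for 4 genes (the same 3 and Avil) and above for Ltc4s, beside 21.3% and 8.3%, and after scaling again for 4 and 1, beside 18.1% and 17.2%. A fall shown by range alone was thus common among all genes.

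**Figure D1:**
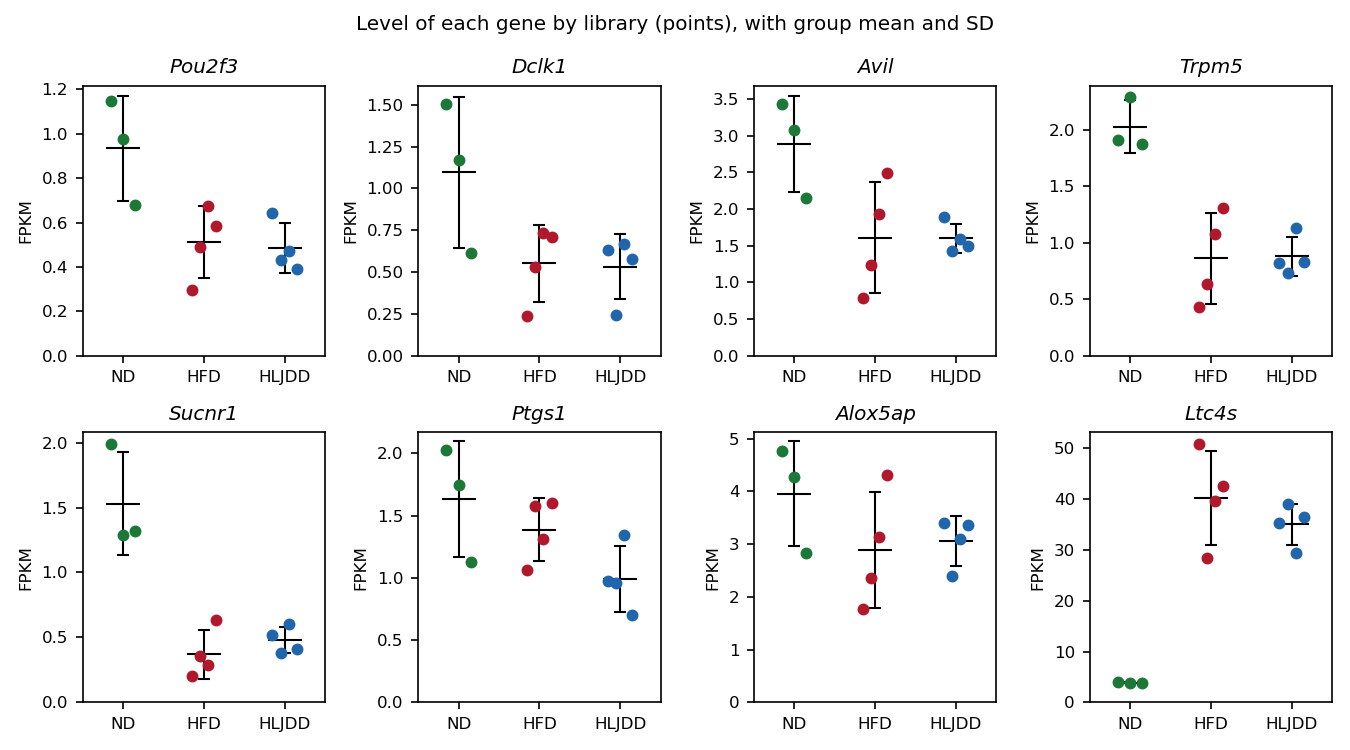
Level in FPKM (vertical axes, linear and starting at 0) of the 8 genes in each library (points), by group, with the group mean and SD (bars). The HFD and HLJDD points of Sucnr1 and Trpm5 all lie below the ND points, those of Ltc4s all lie above them, and the groups of Dclk1, Ptgs1 and Alox5ap overlap.

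The identity genes were low. Pou2f3, the transcription factor tuft cells need to form, lies on chromosome 9 at 43123939-43210369 (GRCm38, minus strand). It stood at 1.15, 0.978 and 0.681 FPKM in the 3 ND libraries, resting on 72 to 115 reads. In HFD it was 0.298, 0.489, 0.674 and 0.585, and in HLJDD 0.644, 0.432, 0.472 and 0.390. Every HFD and HLJDD value was below the lowest ND value, for HFD replicate 3 only just. The groups overlapped in HFD against ND once libraries were scaled. The difference on the log2 scale was -0.36 for HFD (exact two-sided permutation test, p = 0.0571) and -0.38 for HLJDD (p = 0.0286, the smallest that 35 arrangements allow). Over the 6 such tests of Pou2f3 and Dclk1 the adjusted p was 0.171 for both, so neither passed. The HLJDD test already stood at the smallest p possible and still missed the threshold. A wider gap between these groups could not have lowered that p. The adjusted result therefore cannot decide whether Pou2f3 fell.

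Dclk1, a kinase tied to microtubules and a common tuft cell marker, is on chromosome 3 at 55242364-55539068 (plus strand, overlapping 6 other gene models). Its ND levels were 1.505, 1.17 and 0.612 FPKM, so the ND libraries themselves spread widely. HFD libraries held 0.239, 0.530, 0.732 and 0.707 FPKM and HLJDD libraries 0.635, 0.245, 0.666 and 0.579. ND replicate 3 lay inside the range of both other groups, and the permutation p was 0.114 for HFD and 0.0857 for HLJDD. The lowest values belonged to the 2 libraries of highest mitochondrial share. The part of that share in the result was not tested.

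Avil, an actin-bundling protein of the villin family found in tuft cells, is on chromosome 10 at 127000709-127020994 (plus strand) and overlaps Tsfm there. Its ND levels were 3.42, 3.07 and 2.15 FPKM. HFD levels ran 0.788, 1.23, 1.93 and 2.496, and HLJDD levels 1.89, 1.42, 1.59 and 1.5. HFD replicate 4 exceeded ND replicate 3, whereas all HLJDD values were below ND. The changes of -0.60 (SE 0.21) and -0.57 did not pass in limma, with adjusted p = 0.0669 for HFD and 0.101 for HLJDD. Without HFD replicate 4 the adjusted p for HFD was 0.0262.

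The sensing genes Trpm5 and Sucnr1 were the members called lower. The identity genes had lower means too, so the contrast is one of calls. In HFD the mean was 0.547 times that in ND for Pou2f3, 0.504 for Dclk1 and 0.559 for Avil, beside 0.426 for Trpm5. The HFD and ND ranges of Dclk1 and Avil overlapped. Trpm5, the calcium-activated cation channel at the end of the taste signalling pathway, is on chromosome 7 at 143069153-143094642 (minus strand, overlapping Tssc4). It stood at 1.91, 2.29 and 1.87 FPKM in ND. HFD libraries held 0.433, 0.632, 1.08 and 1.31 FPKM, and HLJDD libraries 0.823, 0.733, 1.13 and 0.832. No HFD or HLJDD library reached an ND value. Mean levels fell from 2.03 ± 0.233 (SD, n = 3) to 0.863 ± 0.401 (n = 4) and 0.880 ± 0.172 (n = 4). The log2 change was -0.72 in HFD (limma, SE 0.17, adjusted p = 0.0133) and -0.69 in HLJDD (adjusted p = 0.0202). Without ND replicate 2 the log2 change was -0.66 and -0.63, and the adjusted p rose to 0.0749 and 0.102 (limma). Calls were lost among all genes too in that fit, with 440 lower in HFD and 323 in HLJDD, beside 1241 and 838 with all libraries. The call of Trpm5 thus needs that library, while its change stayed near. Without ND replicate 1, HLJDD replicate 1 or HLJDD replicate 4 the HLJDD call was also lost (adjusted p = 0.0706, 0.0536 and 0.0562 with limma).

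Sucnr1, the succinate receptor, is on chromosome 3 at 60081869-60087566 (plus strand), with no other gene model over it. Its ND levels were 1.99, 1.29 and 1.32 FPKM, from 74 to 110 reads. In HFD it was 0.200, 0.358, 0.287 and 0.632 FPKM, from 10 to 37 reads, and in HLJDD 0.515, 0.381, 0.604 and 0.414, from 18 to 36 reads. The groups were well apart, with the highest HFD library at 0.632 and the lowest ND library at 1.29. The mean in HFD was 0.241 times that in ND, and in HLJDD 0.313 times. On the log2 scale Sucnr1 fell by 0.88 in HFD (limma, SE 0.14, adjusted p = 0.00223) and by 0.77 in HLJDD (adjusted p = 0.00574). Because Sucnr1 passed the filter only through its ND values, its call was also read with no filter, where the adjusted p was 0.00623 in HFD and 0.0133 in HLJDD (limma). With the gene set of all 11 libraries kept, leaving out any 1 library kept both calls.

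In bulk RNA, fewer tuft cells and less RNA of these genes per cell cannot be told apart. Levels were also set against Epcam, a surface protein of all gut epithelial cells, which does not tell these apart either. Epcam itself stood at 828 ± 50.1 FPKM in ND, 562 ± 115 in HFD and 592 ± 161 in HLJDD. Per 1000 FPKM of Epcam, Trpm5 ran from 2.16 to 2.72 in ND, 1.09 to 2.00 in HFD and 1.30 to 1.80 in HLJDD. Sucnr1 ran from 1.52 to 2.57 in ND, 0.466 to 0.965 in HFD and 0.765 to 0.934 in HLJDD. These ranges of Trpm5 and Sucnr1 still did not overlap ND, while those of Pou2f3, Dclk1, Avil, Ptgs1 and Alox5ap did. Ltc4s lay wholly above ND on this scale. The share of all genes with ranges apart on this scale was not computed.

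Members of the Pou2f family bind an octamer, ATGCAAAT, so the bases upstream of the genes were searched for it on both strands. The windows hold up to 250 bases before the RefSeq start (GRCm38.p6), and 6 of the 8 genes were matched. Those of the 3 genes called, and that of Avil, are shown to let the matches be seen, written 5′ to 3′ on the gene's strand with matches in capitals. The octamer occurs in 1.6% of 32851 such windows and its first 7 letters, ATGCAAA, chosen after the windows were seen and contained in the octamer, in 4.12%.
Sucnr1: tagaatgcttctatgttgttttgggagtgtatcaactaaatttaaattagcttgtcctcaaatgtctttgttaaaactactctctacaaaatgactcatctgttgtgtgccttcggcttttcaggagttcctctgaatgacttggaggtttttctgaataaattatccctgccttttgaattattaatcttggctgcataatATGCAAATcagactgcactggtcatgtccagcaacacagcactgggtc
Avil: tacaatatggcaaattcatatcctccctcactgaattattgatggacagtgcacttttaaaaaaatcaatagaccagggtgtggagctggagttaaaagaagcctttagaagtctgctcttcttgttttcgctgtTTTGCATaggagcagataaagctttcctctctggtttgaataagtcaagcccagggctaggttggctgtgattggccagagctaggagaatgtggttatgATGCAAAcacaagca
Trpm5: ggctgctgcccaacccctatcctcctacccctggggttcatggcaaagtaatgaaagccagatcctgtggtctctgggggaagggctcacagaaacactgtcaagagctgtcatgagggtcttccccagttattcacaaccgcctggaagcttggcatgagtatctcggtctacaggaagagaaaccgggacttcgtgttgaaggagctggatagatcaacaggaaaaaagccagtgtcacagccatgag
Ltc4s: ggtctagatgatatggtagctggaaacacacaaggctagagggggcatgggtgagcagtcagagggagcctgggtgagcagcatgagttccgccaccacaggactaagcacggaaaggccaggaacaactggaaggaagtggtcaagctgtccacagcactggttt
They lie at chr3:60081619-60081868 (plus strand), chr10:127000459-127000708 (plus), chr7:143094643-143094892 (minus) and chr11:50238617-50238782 (minus). The Sucnr1 window held the octamer 48 bases before the start. Avil had the shorter motif 115 bases before the start on the opposite strand, and 15 bases before it on the gene's strand. The Trpm5 and Ltc4s windows, and those of Dclk1 and Ptgs1, held neither. The Ltc4s window has only 166 bases. The 84 bases next to its RefSeq start lie inside the gene model and were left out, so they were not searched. A match is only a run of letters, and no binding was measured here.

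The 3 synthesis genes did not move together. Ltc4s, which makes leukotriene C4, is a compact gene on chromosome 11 at 50236461-50238616 (minus strand). It stood at 4.00, 3.77 and 3.91 FPKM in ND, only 97 to 102 reads each. HFD libraries held 50.8, 28.4, 39.6 and 42.5 FPKM, and HLJDD libraries 35.2, 39.0, 29.5 and 36.4. The lowest HFD value was several times the highest ND value, and the ND libraries were the closest together of the 3 groups. The mean was 3.89 ± 0.117 FPKM in ND (SD, n = 3), 40.3 ± 9.25 in HFD (n = 4) and 35 ± 4.02 in HLJDD (n = 4), 10.4 times and 8.99 times the ND mean. The log2 change was 3.05 in HFD (limma, 95% confidence interval 2.66 to 3.43, adjusted p = 2.51e-06) and 2.87 in HLJDD (adjusted p = 5.00e-06). Ltc4s was called in all 24 alternative analyses run for each of these comparisons. The antisense gene Gm26542 overlaps the span of Ltc4s, and overlap with its exons was not checked. The strand setting of the counting is not given in the sources used here, so reads of these genes cannot be told apart where they overlap.

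Alox5ap, the partner that presents arachidonic acid to Alox5, is on chromosome 5 at 149264767-149288153 (plus strand, overlapping 2 other gene models). It was at 4.76, 4.28 and 2.84 FPKM in ND, 1.77, 2.37, 3.14 and 4.31 in HFD, and 3.40, 2.39, 3.09 and 3.37 in HLJDD. The groups overlapped, and its change of -0.37 in HFD did not pass (limma, 95% confidence interval -0.84 to 0.10, adjusted p = 0.224). Because both are in each library, the ratio of Ltc4s to Alox5ap needs no scaling between libraries. It was 0.841, 0.881 and 1.38 in ND, 28.8, 12.0, 12.6 and 9.85 in HFD, and 10.3, 16.3, 9.53 and 10.8 in HLJDD. In ND the 2 genes were thus at like levels per length, and in every other library Ltc4s exceeded its partner several times over.

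Ptgs1, on chromosome 2 at 36230426-36252272 (plus strand, overlapping Gm43621), was at 2.03, 1.75 and 1.13 FPKM in ND. It was at 1.06, 1.58, 1.31 and 1.60 in HFD and 0.974, 0.956, 1.34 and 0.702 in HLJDD. All 3 groups overlapped. The log2 change was -0.13 in HFD (limma, adjusted p = 0.547). After scaling the log2 change was 0.022 (adjusted p = 0.915 with limma). In HLJDD it was -0.40 as deposited (adjusted p = 0.126 with limma).

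**Figure D2:**
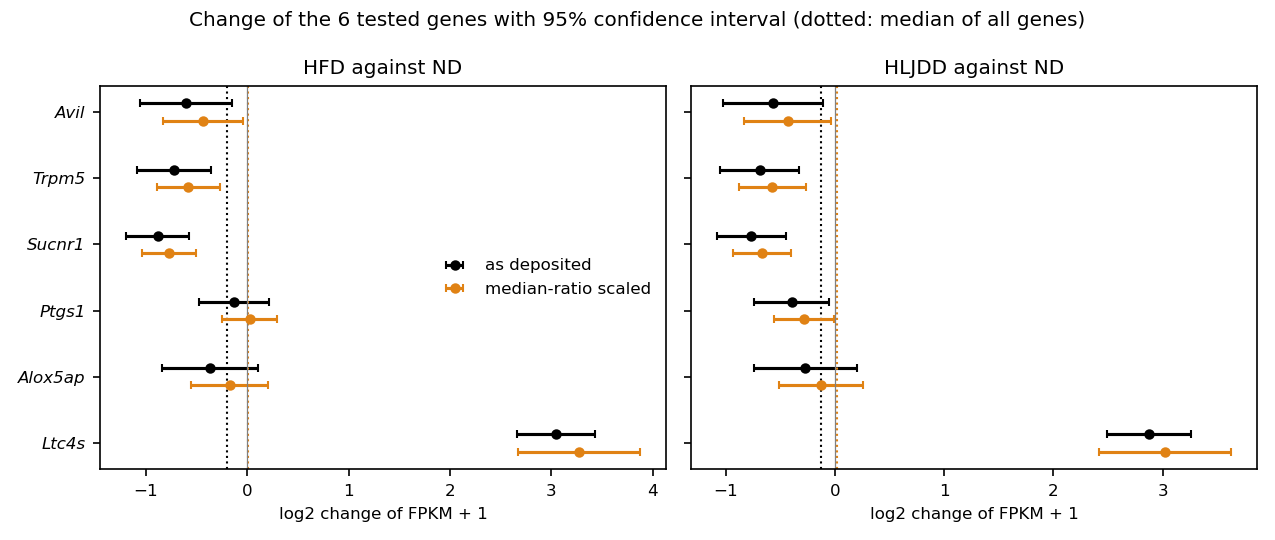
Change on the log2(FPKM + 1) scale (horizontal axes) with 95% confidence intervals for the 6 genes in the fit, in HFD against ND and HLJDD against ND, as deposited (black) and after median-ratio scaling (orange), with the median of all genes as dotted lines. Ltc4s lies near 3 in each, and the intervals of Sucnr1 and Trpm5 lie below 0 in each.

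By level, ND libraries ran from Alox5ap (3.96 ± 0.998 FPKM) and Ltc4s (3.89 ± 0.117) through Avil (2.88 ± 0.655), Trpm5 (2.03 ± 0.233), Ptgs1 (1.64 ± 0.464), Sucnr1 (1.53 ± 0.396) and Dclk1 (1.10 ± 0.451) to Pou2f3 (0.935 ± 0.236; SD, n = 3). All neighbours in that order overlapped over the libraries except Ltc4s and Avil. In HFD the order was Ltc4s, Alox5ap (2.90), Avil (1.61), Ptgs1 (1.39), Trpm5 (0.863), Dclk1 (0.552), Pou2f3 (0.511) and Sucnr1 (0.369), with Sucnr1 last in place of Pou2f3. There all neighbours overlapped save Ltc4s and Alox5ap. HLJDD libraries had the same order (Ltc4s, Alox5ap 3.06, Avil 1.60, Ptgs1 0.994, Trpm5 0.880, Dclk1 0.531, Pou2f3 0.485 and Sucnr1 0.478). HFD replicate 1, with its high mitochondrial share, was the lowest of all 11 libraries for 6 of the 8 genes and the highest for Ltc4s.

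HLJDD libraries were close to HFD libraries. None of the 6 genes, and 0% of the 10764 genes, was called in HLJDD against HFD by limma (186 genes had an unadjusted p under 0.05). Among the 6 genes none had such a p. By limma-voom on the recovered reads 0 genes were called, with 561 unadjusted. Leaving out HLJDD replicate 2 gave 1 called gene, none of the 8, and 1701 unadjusted. In HLJDD against HFD the ranges of all 8 genes overlapped, as deposited. Among all genes, 0.483% lay wholly higher and 0.548% wholly lower. The log2 difference of Ltc4s was -0.18 (95% confidence interval -0.53 to 0.18), that of Sucnr1 0.12 (-0.17 to 0.41) and that of Trpm5 0.034 (-0.30 to 0.37). The widest difference was that of Ptgs1, at -0.26 (-0.58 to 0.056, adjusted p = 0.999). After scaling, the 2 groups of Ptgs1 did not overlap, HLJDD being lower, as for 1.71% of all genes (1.89% lay higher), and it was the 1 member with an unadjusted p under 0.05 (0.0230). Pou2f3 differed by -0.022 (exact permutation test, p = 0.8) and Dclk1 by -0.016 (p = 0.83). These intervals bound the differences and do not show that the groups are alike.

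The groups also differed in markers of the stretch of small intestine. Fabp6, the bile acid binding protein of the ileum, was at 9821, 6702 and 397 FPKM in ND, 1.26 to 4.31 in HFD and 0.212 to 2.27 in HLJDD. Gata4, a transcription factor of the upper small intestine, stood at 16.6 ± 7.53 FPKM in ND (n = 3), 30.5 ± 4.85 in HFD (n = 4) and 32.5 ± 4.48 in HLJDD (n = 4). Of 12 distal genes tested, 9 fell and 0 rose in HFD against ND, and of 9 proximal genes tested 6 rose and 1 fell. Among all genes tested 11.5% fell and 5.06% rose. Of the proximal genes Apoa4, an apolipoprotein of lipid absorption, rose by 4.27 on the log2 scale (limma, adjusted p = 0.000958). Slc51b, a subunit of the ileal bile acid exporter, fell by 1.65 (limma, adjusted p = 0.000496). Group and stretch of gut cannot be told apart here.

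Among the ND libraries Fabp6 ran from 397 to 9821 FPKM and Ltc4s from 3.77 to 4.00. ND replicate 3, the lowest of them in Fabp6 but still far above every HFD library, lay between the others in Ltc4s as deposited and was the highest after scaling (3.77, beside 3.43 and 3.26). For Pou2f3, Dclk1, Avil, Ptgs1 and Alox5ap it was the lowest of the ND libraries, and it was also the lowest for Trpm5. With ND replicates 1 and 2 left out, Ltc4s was called in both comparisons by limma. Sucnr1 (-0.77, adjusted p = 0.171) and Trpm5 (-0.65, adjusted p = 0.422) were not called in HFD against ND with the same fit, in which 1 ND library remains and is assumed to vary as the other groups do.

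**Figure D3:**
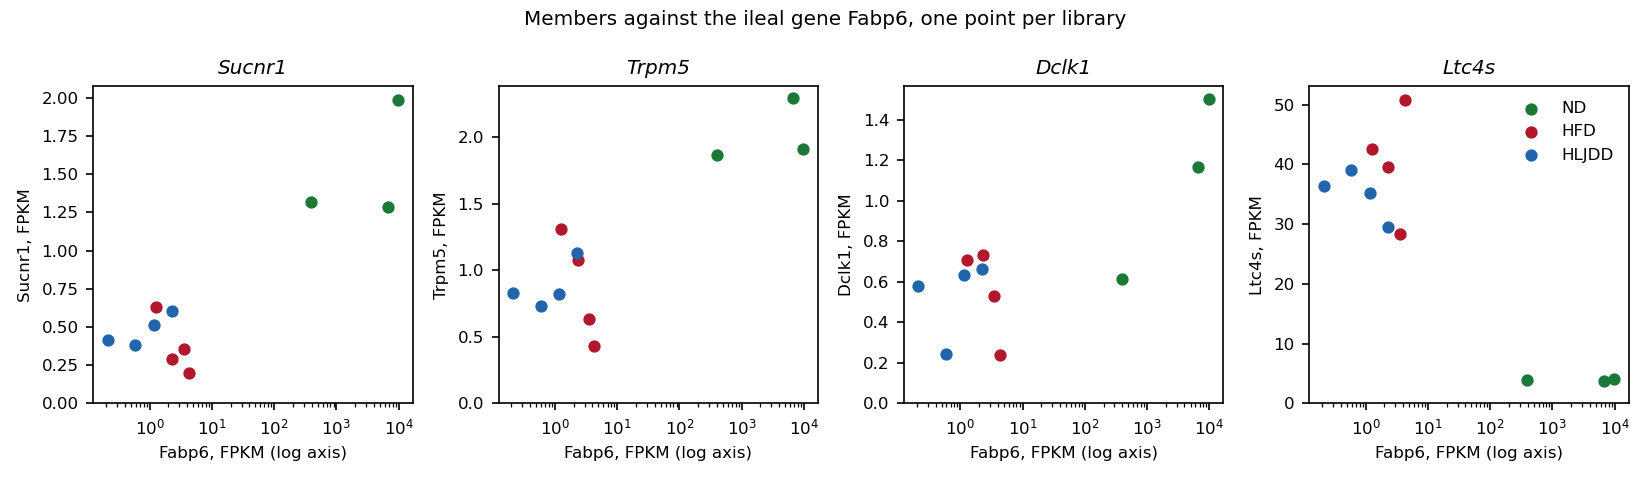
Level in FPKM (vertical axes, linear) of Sucnr1, Trpm5, Dclk1 and Ltc4s against Fabp6 in FPKM (horizontal axes, log), with 1 point per library coloured by group. ND replicate 3, at 397 FPKM of Fabp6, lies with the other ND libraries for Ltc4s, Trpm5 and Sucnr1 and among the HFD and HLJDD libraries for Dclk1.

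Other tuft cell genes were followed as a list of 48, of which 26 were in the fit. In HFD against ND 7 fell and 1 rose, and in HLJDD against ND 8 fell and 1 rose. These shares sit beside backgrounds of 11.5% lower and 5.06% higher, and 7.79% and 4.1%. Ildr1, lower in both, entered the fit only through ND libraries. Lect2, the 1 gene higher in HFD, entered it only through HFD libraries. The median change in HFD was -0.30 (-0.20 for all genes), and after scaling -0.077 (0.0025 for all genes), with 6 lower and 2 higher. The number lower in HFD was 2 without ND replicate 1, 3 without ND replicate 2 and 4 without HFD replicate 1. Among all 10764 genes it was 441, 440 and 764 in these fits, beside 1241 with all libraries. In HLJDD the number lower on the list was 2 without ND replicate 1 or 2 and 4 without HLJDD replicate 1 or 4. Among all genes it was 316, 323, 579 and 449 in these fits, beside 838 with all libraries. Calls were thus lost among all genes too.

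Ildr1, a protein of tricellular junctions, fell from 1.496 ± 0.256 to 0.403 ± 0.139 FPKM (limma, adjusted p = 0.00356). Like Sucnr1, it reached 1 FPKM only in ND libraries, so its call is not free of that choice. Nmu, the neuropeptide neuromedin U, fell from 5.41 ± 2.81 to 1.11 ± 0.267 (limma, adjusted p = 0.00469). Inpp5j, an inositol phosphatase, fell from 4.35 ± 0.987 to 1.97 ± 0.621 (limma, adjusted p = 0.00862, or 0.0577 without ND replicate 1). Lect2, a secreted protein better known from liver, rose from 0.323 ± 0.174 to 2.16 ± 1.16 (limma, adjusted p = 0.00352). It reached 1 FPKM only in HFD libraries (1.34 to 3.88), so its presence in the fit already depended on HFD. In HLJDD Lect2 was at 0.828 ± 0.0652 FPKM and was not called against ND (adjusted p = 0.167 in limma). All 4 HLJDD libraries were below all 4 HFD libraries for Lect2, but the test of HLJDD against HFD gave an adjusted p of 0.999 in limma.

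Some genes outside the naming rule were picked after their values were seen. Siglecf, a sialic acid receptor of tuft cells and eosinophils, fell from 2.52 to 1.15 FPKM in HFD (limma, adjusted p = 0.0140, or 0.0819 and 0.0771 without ND replicate 1 or 2). Rgs13, a brake on G protein signals, fell from 6.93 to 3.01 (limma, adjusted p = 0.0258, or 0.129, 0.0912 and 0.0599 without ND replicate 1, ND replicate 2 or HFD replicate 1). Gnat3, the G protein subunit gustducin that acts upstream of Trpm5, was too low for the fit. It stood at 0.725 to 0.813 FPKM in ND (30 to 35 reads), 0.0252 to 0.120 in HFD (1 to 5 reads) and 0 to 0.0459 in HLJDD (0 to 2 reads). Its groups were well apart, on few reads. Other genes of that signalling path on the list, also below the fit, overlapped between ND and HFD: the G protein subunit Gng13 had 5 to 15 reads in ND and 6 to 25 in HFD, the phospholipase Plcb2 65 to 128 and 78 to 150, and the taste receptor Tas1r3 9 to 16 and 8 to 21. Il25, the cytokine tuft cells send out, had 4 to 5 reads per ND library, 0 to 3 per HFD library and 0 to 2 per HLJDD library. Gfi1b, a tuft cell transcription factor, was at 0.265 FPKM or less everywhere. At this depth no change of either can be read.

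Without the 2 libraries of highest mitochondrial share, 6 of the 26 tested genes of this tuft cell list were lower and 3 higher in HFD against ND. Of all 10764 genes, 2339 were lower and 1013 higher in that fit, so these counts are near the shares of all genes. With all libraries 13 of the 26 had an unadjusted p under 0.05 in limma, beside 3950 of all 10764 genes. Without ND replicates 1 and 2 only 1 ND library remains, so calls are not counted there.

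The rest of the leukotriene pathway was read from a list of 41 further eicosanoid genes, 40 of them in the table and 18 in the fit. In HFD against ND 4 rose and 1 fell, beside 5.06% and 11.5% of all genes. In HLJDD against ND 4 rose and 1 fell, beside 4.1% and 7.79%. The median change was 0.037 and 0.072, beside -0.20 and -0.13 for all genes. After scaling 7 were higher and 2 lower in HFD (11.7% and 11.4% of all genes) and 6 and 2 in HLJDD (8.72% and 9.19%). Without ND replicate 1 or 2 only 1 was higher in HLJDD. Among all 10764 genes 154 and 170 were, beside 441 with all libraries. Without HLJDD replicate 2 the number lower in HFD was 3, and among all genes it was 2438, beside 1241. Without ND replicates 1 and 2 only 1 ND library remains, so calls of these 18 genes are not counted there.

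Ephx2, the soluble epoxide hydrolase that breaks down fatty acid epoxides, rose from 94.1 ± 50.4 to 339 ± 88.1 FPKM (limma, adjusted p = 0.00486). Mgst3, a membrane glutathione transferase of the same family as Ltc4s and Alox5ap, rose from 220.5 ± 38.9 to 388 ± 44.3 (limma, adjusted p = 0.00723). Cbr1, a carbonyl reductase that acts on prostaglandin E2, rose from 154 ± 46.7 to 352 ± 37.9 (limma, adjusted p = 0.00733). Slco2a1, the transporter that takes up prostaglandins, fell from 18.9 ± 1.02 to 7.08 ± 1.32 (limma, adjusted p = 0.00339). The other gene that rose, Ltb4r1, is the leukotriene B4 receptor, at 3.96 ± 0.604 and 6.76 ± 0.980 FPKM. Its call was lost without ND replicate 1, ND replicate 2 or HFD replicate 1 (adjusted p = 0.134, 0.110 and 0.0661 with limma). The Mgst3 and Cbr1 calls in HLJDD against ND (adjusted p = 0.0173 and 0.0165) were lost without ND replicate 1 (0.0971 and 0.0959 with limma) or ND replicate 2 (0.0749 and 0.0664), and that of Mgst3 also without HLJDD replicate 4 (0.0573).

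The steps next to Ltc4s were also read, again picked after values were seen. Lta4h, which takes the same substrate to leukotriene B4, was at 122 ± 11.3 and 124 ± 16.2 FPKM in ND and HFD (limma, adjusted p = 0.927). Mgst2, a relative that can also make leukotriene C4, was at 83.4 ± 11.6 and 112 ± 12.9 (adjusted p = 0.0707 in limma, 0.00804 after scaling). Both were far above Ltc4s per length in ND. Alox5, the enzyme that starts the pathway, was too low for the fit. It had 0.857 to 1.65 FPKM in ND (99 to 181 reads), 0.172 to 0.665 in HFD (17 to 77 reads) and 0.235 to 0.576 in HLJDD (22 to 68 reads). All HFD and HLJDD libraries were below all ND libraries for Alox5, the opposite order to Ltc4s. Cysltr1, a receptor of the cysteinyl leukotrienes, was at 0.179 FPKM or less in every library.

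**Figure D4:**
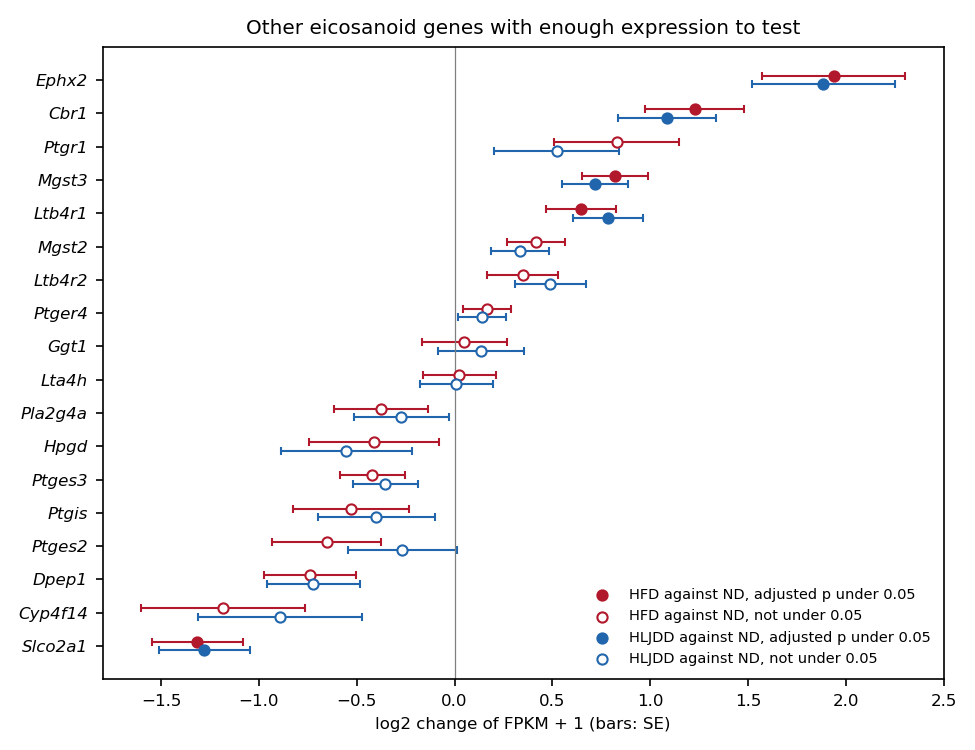
Change on the log2(FPKM + 1) scale (horizontal axis, bars show SE) of the 18 further eicosanoid genes in the fit, for HFD against ND (red) and HLJDD against ND (blue), with filled points for an adjusted p under 0.05. Ephx2, Cbr1, Mgst3 and Ltb4r1 are filled to the right of 0 and Slco2a1 to the left in both comparisons.

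Of 23 genes of type 2 cytokines, their receptors and targets, 20 were in the table and 11 in the fit. In HFD against ND limma called 0 of the 11, with 2 at an unadjusted p under 0.05. Among all 10764 genes 16.6% were called, and 3950 had such an unadjusted p. After median-ratio scaling limma called 2 of the 11 higher, Il33 (adjusted p = 0.0223) and the goblet cell mucin Muc2 (0.0411), beside 11.7% of all genes. By limma-voom on recovered reads 2 were also called higher, beside 1250 of 10764 genes. In HLJDD against ND limma called 0, with 3 unadjusted, and 1 higher after scaling, beside 8.72% of all genes. As deposited, 11.9% of all genes were called there, and 3095 had an unadjusted p under 0.05. Il13, the cytokine that drives tuft cell growth, had at most 1 read per library. Il33, an alarmin, was at 6.04 ± 2.76 FPKM in ND and 10.5 ± 2.22 in HFD (adjusted p = 0.0768 in limma). Il4ra, the receptor chain for interleukins 4 and 13, was at 10.3 ± 0.505 and 7.82 ± 1.01 (adjusted p = 0.0916 in limma).

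Ltc4s is also a gene of mast cells and eosinophils, so markers of other cells were read beside it. The summed level of 10 mast cell genes was 1.29 to 2.05 FPKM in ND, 0.757 to 1.66 in HFD and 0.916 to 1.26 in HLJDD, most of it from Kit. Of the defining mast cell genes, Cpa3 had 0 to 2 reads per library and Ms4a2 0 to 1. For 6 eosinophil genes the sums were 1.92 to 3.77 FPKM in ND, 1.13 to 3.30 in HFD and 1.78 to 3.23 in HLJDD, with Epx at 0 to 1 reads. For 7 neutrophil genes they were 0.139 to 0.469, 0.234 to 0.542 and 0.224 to 0.928. Most of the eosinophil sum in ND came from Siglecf, which is also on the tuft cell list and was lower. Without it, the other 5 genes summed to 0.178 to 0.982 FPKM in ND, 0.346 to 2.18 in HFD and 0.780 to 2.01 in HLJDD, and 3 of 4 HFD and 2 of 4 HLJDD libraries lay above every ND library. Prg2, a granule protein, had 1 to 2 reads per ND library, 5 to 34 per HFD library and 6 to 32 per HLJDD library, and the interleukin 5 receptor chain Il5ra had 0 to 1, 0 to 28 and 1 to 23. Ear2 overlapped, with 3 to 25 reads in ND and 0 to 24 in HFD, and Epx and Ccr3 had at most 1 read. Between groups this sum thus moved in part with Ltc4s. Within groups, 4 libraries each and few reads per gene are too little to read an order from. HFD replicate 1, a library of high mitochondrial share, was the highest HFD library in Ltc4s (50.8 FPKM) and the lowest in the sum (0.346). HLJDD replicate 3 was the lowest HLJDD library in Ltc4s (29.5) and the highest in the sum (2.01). The part of eosinophil genes in the Ltc4s result was not tested.

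Macrophage genes (12) summed to 31.6 to 38.4 FPKM in ND, 41.1 to 94.98 in HFD and 27.6 to 105.3 in HLJDD. B cell genes (6) summed to 1.59 to 3.34 in ND, 1.74 to 194.9 in HFD and 3.77 to 103.9 in HLJDD. By limma 0 of the 8 macrophage and 0 of the 6 B cell genes tested were called in HFD against ND, with 2 and 6 at an unadjusted p under 0.05. Among all 10764 genes 16.6% were called, and 3950 had such an unadjusted p. Without HFD replicate 4 limma called B cell genes higher, with Cd79a at adjusted p = 0.00801 and Cd79b at 0.0110. Sums of enteric nerve and glia genes were 21.5 to 35.4 in ND, 7.73 to 28.4 in HFD and 10.4 to 21.0 in HLJDD, and those of muscle and fibroblast genes 484 to 711, 174 to 673 and 195 to 494. T cell, endothelial and enteroendocrine sums overlapped between ND and HFD. These levels move in part with the groups, and their part in the results was not tested.

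The genes most like the 8 were those whose log2 level followed the mean of the 8 standardized profiles over the 11 libraries. They were Ankrd40cl (Pearson r = 0.960), Sh2d7 (0.957), Gcnt3 (0.957), Car12 (0.956) and Pcsk1 (0.950), all highest in ND. Gcnt3 builds mucin sugar chains, Car12 is a carbonic anhydrase and Pcsk1 cuts prohormones in enteroendocrine cells. As Ltc4s runs against the other members, likeness was also computed, after values were seen, for Ltc4s alone. The closest were Tm4sf4 (r = 0.991; 50.6 ± 3.72 FPKM in ND and 589 ± 128 in HFD), Pmepa1 (0.986), Cldn4 (0.984), Gata6os (0.981) and Gprc5a (0.976). Tm4sf4 is a tetraspan membrane protein and Cldn4 a claudin of tight junctions. The other 7 members had pairwise r from 0.524 to 0.928, and from 0.224 (Ptgs1 with Alox5ap) to 0.890 after median-ratio scaling. These correlations describe 11 libraries in 3 groups that share depth and group differences, and carry no test.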

How the data were processed

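The deposited values are FPKM, which the authors made from reads per gene. HISAT2, HTSeq, fastp and R 3.2.0 and the mm10 build are named, per the submitters' processing notes. RNA was extracted with TRIzol and a VAHTS Universal V6 kit served for the libraries, per the labels' protocols. The annotation and strand setting were not given in the sources used here. Libraries were grouped by title. The single files and the series table held the same values.

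Whole reads were recovered from the FPKM for 100% of 24294 genes (tolerance 0.02 reads), and limma-voom on them was run as an alternative. The main test was limma (version 3.58.1, R 4.3.3) on log2(FPKM + 1), a scale that understates changes of low genes, two-sided, with a variance trend and all 11 libraries in one fit. Pou2f3 and Dclk1 were tested by exact two-sided permutation of group means. The script was tested on simulated data. Named genes are the 8 members, up to 4 genes of smallest adjusted p of each other list, the 5 most alike, and Epcam, Fabp6 and Gata4. All other genes named (such as Siglecf, Rgs13, Gnat3, Gng13, Plcb2, Tas1r3, Il25, Gfi1b, Alox5, Mgst2, Lta4h, Ltb4r1, Cysltr1, Muc2, Il13, Prg2, Il5ra, Cpa3, Ms4a2 and Epx) were picked after their values were seen. Members and lists were chosen with earlier results of these data known. Positions are from GENCODE M21 (GRCm38, the same build as mm10). Alternatives changed the pseudocount, filter, scaling, variance estimate, samples and replicate block.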

Additional observations from a re-analysis of the deposited data

How the results depend on the processing

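Of the alternative values, 624 kept direction and side of the threshold (or stayed within the spread or 1.5 times), 20 lost the threshold, 3 gained it, 22 turned direction and 21 others moved. Ltc4s passed in all 24 alternatives in both comparisons with ND (log2 change 2.93 to 3.58 and 2.82 to 3.32). The count of the 8 genes called lower in HFD against ND was 2. It was 1 with a mean of at least 1 FPKM, where Sucnr1 was not tested, and 0 with a mean of at least 5 FPKM, where only Ltc4s was. Leaving out 1 library gave 1 to 3, the 3 with Avil. Without ND replicates 1 and 2, an alternative chosen after seeing the data, it was 0. In HLJDD against ND the count was also 2. It was 1 with no filter (Trpm5, adjusted p = 0.0510 in limma), 1 with a mean of at least 1 FPKM, 0 with a mean of at least 5 FPKM, 1 to 3 when 1 library was left out and 0 without ND replicates 1 and 2. Avil passed in HLJDD against ND when only those 2 groups were fitted (limma, adjusted p = 0.0379) and without HFD replicate 1 (0.0436).

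Directions that turned belonged to changes that had not passed. Ptgs1 in HFD against ND was 0.022 with median-ratio scaling, 0.045 with limma-voom with and without a filter, and 0.16 without ND replicates 1 and 2. Alox5ap in HLJDD against ND was 0.074 without ND replicates 1 and 2. In HLJDD against HFD, Avil was -0.030 with limma-voom, -0.019 with limma-voom and no filter, and -0.098 without the 2 libraries of highest mitochondrial share, where Trpm5 was -0.046. With 1 library left out, Avil ran from -0.13 to 0.19, Trpm5 from -0.084 to 0.15, Alox5ap from -0.056 to 0.26, Pou2f3 from -0.094 to 0.029 and Dclk1 from -0.12 to 0.080. The cause of these turns was not tested.

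Same-numbered libraries had correlations of their deviations from -0.22 to 0.37. Differently numbered libraries were not correlated, so these values cannot tell whether the numbers pair the libraries. With the replicate block, all members kept their calls, and the genes called in HFD against ND were 386 higher and 694 lower, beside 545 and 1241 without it. In HLJDD against ND they were 280 and 444, beside 441 and 838. Depth limits the low genes, such as Sucnr1 with 10 to 37 reads per HFD library.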
